A study of Mus musculus with 44 samples.

Results

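The subject here is how far the liver and the skeletal muscle of one mouse varied together. Liver and muscle libraries were matched by the animal number in the sample titles, which gave 22 mice and used all 44 libraries of the series. The 22 mice were 11 wild-type (WT) littermates and 11 mice with a constitutive, whole-body CRISPR/Cas9 deletion in Slc16a13 (KO), a gene for a lactate transporter of the plasma membrane. All were male C57BL/6N mice that received a high-fat diet (HFD) for 15 weeks, from the age of 5 weeks, and were killed at 20 weeks after an overnight fast. WT and KO mice shared strain, sex, diet and fasting, and the deletion covers the promoter and first exons and not the whole gene. Poly(A) RNA was sequenced and counted per gene, with 20150712 to 35218243 counts in a library. Of 38202 genes in the table, 10370 had a mean of at least 1 CPM, the count scaled to a fixed library total, in both tissues and were tested. For each gene, log2 CPM was expressed as a deviation from the mean of its tissue and genotype, and the deviations in liver were correlated with those in muscle over the 22 mice, against pairings shuffled within genotype.

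Organs of one animal receive the same blood-borne signals and keep their daily rhythms aligned through them. Glucocorticoids from the adrenal gland enter cells of most tissues and switch on genes such as Per1, Tsc22d3 and Fkbp5 through the glucocorticoid receptor. The circadian clock is a feedback loop in which CLOCK and BMAL1 (encoded by Arntl) bind E-boxes and activate Per and Cry genes, whose proteins then repress them. Interferons are secreted in infection and inflammation and induce GTPases, antigen-processing proteins and transcription factors in many cell types. An inherited difference between animals is present in every organ as well.

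Slc16a13 in liver matched the labels, with 99 to 302 reads in WT livers and 0 to 8 in KO livers. In muscle Slc16a13 was low in both groups, and it went against the labels. WT muscles held 4 to 22 reads and the muscle libraries labelled KO held 11 to 40 reads, so that the muscle counts do not check the genotype. Summed CPM of 5 hepatocyte markers was 67959 to 116231 in liver and 0.315 to 7.88 in muscle, and that of 5 muscle fibre markers was 108535 to 180554 in muscle and 0.521 to 52.0 in liver. No pair of libraries held identical counts. In 4 KO livers (mice 532, 583, 602 and 611) the change of log2 CPM with log2 gene length, fitted per library as a slope, was -0.57 to -0.08, against 0.04 to 0.11 in the other 18 livers, and some results are also given without these mice.

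Across the 10370 genes, liver and muscle of the same mouse deviated together slightly more often than not. Pearson's r was above 0 for 6689 genes (64.5 percent), with a median of 0.08. The mean r was 0.08 (two-sided permutation test, 100000 shuffles, p = 0.00616), where 95 percent of shuffled pairings had a mean between -0.06 and 0.06. The mean r was 0.09 in WT mice and 0.09 in KO mice. Without the 4 mice with a low liver slope the mean r was 0.11 (permutation p = 6e-05), and Per1, Lime1, Rin2, Fam107a and Ebpl, which passed the threshold on the adjusted p over all mice, did not pass it without these 4.

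**Figure D1:**
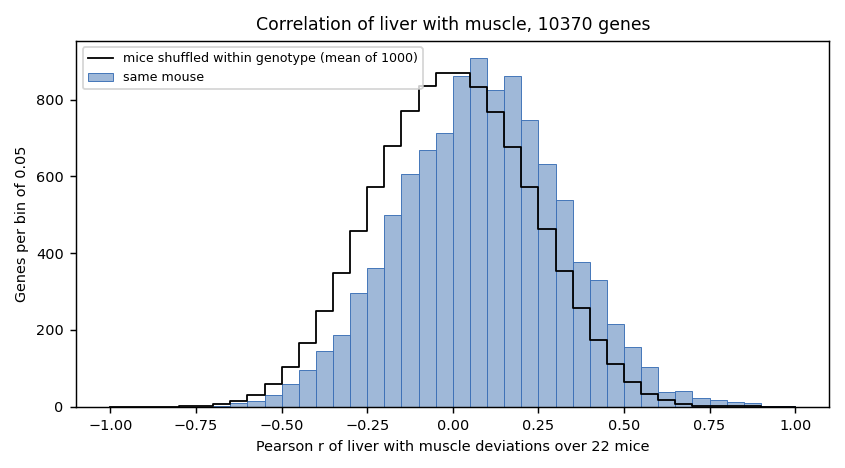
Number of genes in each bin of 0.05 of Pearson's r between liver and muscle over 22 mice (bars), beside the mean number when mice were shuffled within genotype (line). The bars are shifted to the right of the line, with a median r of 0.08, and a tail of genes has r above 0.7.

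After Benjamini-Hochberg adjustment over all 10370 genes, liver and muscle levels of 24 genes (0.231 percent) were positively correlated over mice. No gene was negatively correlated at the adjusted threshold of 0.05 (0 percent), by this permutation test or by the t distribution of the partial correlation, while Spearman's rho gave 1, Gpr157. At an unadjusted p under 0.05, 681 genes (6.57 percent) were positively and 125 (1.21 percent) negatively correlated. The r of the 24 genes lay between 0.74 and 0.96, and 12 of them had the smallest p that 100000 shuffles can give (p = 1e-05, adjusted p = 0.00864). In WT mice alone r was 0.58 to 0.96 and in KO mice alone 0.56 to 0.97. Removing the 2 mice farthest from the median liver value left r between 0.65 and 0.94. For 13 of the 24 genes the call held whichever mouse was left out, and r never fell under 0.64. Ranks gave an adjusted p under 0.05 for 17 of the 24. The last gene inside the threshold was Cdk5rap1 (r = 0.79, adjusted p = 0.0302) and the first outside it was Scrib (r = 0.74, adjusted p = 0.0664).

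Per1, a repressor of the clock that glucocorticoids also induce, varied over a wide range in both tissues. In liver its level was 5.98 to 65.5 CPM in WT mice (median 37.6) and 14.1 to 54.4 CPM in KO mice (median 37.5). In muscle it was 39 to 165 CPM in WT (median 77.5) and 34.2 to 142 CPM in KO (median 92.9). The WT mouse 623 was the lowest of its genotype in both tissues, and the KO mice 561, 597 and 611 held the 3 lowest KO values in both. Over the 22 mice r was 0.76 (permutation p = 2e-05, adjusted p = 0.0109) and rho was 0.68 (permutation p = 0.00071). The adjusted p rose to 0.0933 at most when 1 mouse was left out. The call was lost, with an adjusted p above 0.05, without WT 623, KO 561 or KO 597. The call was also lost by rank and without the 4 mice with a low liver slope.

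Usp2, a deubiquitinase whose transcript cycles with the clock in many tissues, ranged from 2.89 to 32.4 CPM in WT livers and from 3.12 to 43.9 CPM in KO livers. In muscle it ranged from 83.2 to 173 CPM in WT and from 71.6 to 160 CPM in KO. Mouse 528 was the lowest WT mouse in both tissues, KO 561 the lowest KO mouse, and KO 568 the highest KO mouse. Its r was 0.87 (permutation p = 1e-05, adjusted p = 0.00864), its rho 0.89 (permutation p = 1e-05), and r without the 2 farthest mice was 0.85. Liver spread more than muscle, with standard deviations of 1.24 and 0.40 on the log2 scale.

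Cdkn1a encodes p21, an inhibitor of cyclin-dependent kinases that p53 and glucocorticoids can induce. Liver levels were 24.6 to 103 CPM in WT and 21.3 to 93.4 CPM in KO mice, and muscle levels were 24.7 to 80.6 CPM in WT and 18.2 to 77.9 CPM in KO mice. WT 616, KO 588 and KO 561 were at the same end of their genotype in both tissues, the first 2 highest and the last lowest. Here r was 0.88 and rho 0.89 (permutation p = 1e-05 for each, adjusted p = 0.00864 for r). Among 17 tested p53 targets, only Cdkn1a and the polo-like kinase gene Plk2 passed the test, against 0.231 percent of all genes. The median r of that list was -0.01.

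Map3k6, a stress-activated kinase of the MAP kinase pathway, was 0.563 to 2.10 CPM in WT livers and 0.457 to 4.77 CPM in KO livers. Its muscle levels were 6.61 to 16 CPM in WT and 4.94 to 18.3 CPM in KO mice. WT 567 and KO 568 were highest of their genotype in both tissues. Its r was 0.88 and its rho 0.89 (permutation p = 1e-05 for each, adjusted p = 0.00864 for r).

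Wbp1l, a membrane protein that binds WW domains, had a narrow spread in liver and a wider one in muscle. Liver levels were 374 to 481 CPM in WT and 339 to 509 CPM in KO mice, and muscle levels 103 to 210 CPM and 88.0 to 274 CPM. KO 568 was highest in both tissues. With an r of 0.92 and a rho of 0.90 (permutation p = 1e-05 for each, adjusted p = 0.00864 for r) the liver order was close to the muscle order. Wbp1l no longer passed once the dependence on gene length was removed from each library. Eef2, the factor that moves the ribosome along the message, ranged from 1342 to 2003 CPM over all livers and from 1383 to 1951 CPM over all muscles. Its r was 0.86 and its rho 0.86 (permutation p = 1e-05 for each, adjusted p = 0.00864 for r).

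Some correlated genes moved against Per1. Lpar6, a receptor for lysophosphatidic acid, was 9.03 to 20.4 CPM in WT livers and 8.34 to 20.0 CPM in KO livers, and 1.30 to 4.20 CPM and 1.20 to 5.91 CPM in muscle. WT 623, lowest for Per1, was the highest WT mouse for Lpar6 in both tissues, and WT 536 and KO 588 were the lowest mice of their genotype in both. Its r was 0.86 and its rho 0.86 (permutation p = 1e-05 for each, adjusted p = 0.00864 for r). Plk2 had the same extremes among WT mice, 6.04 CPM in WT 536 and 17.8 CPM in WT 623 in liver, and 3.69 and 8.85 CPM in muscle, with r = 0.82 (permutation p = 1e-05, adjusted p = 0.00864). Over mice, r of Lpar6 with Per1 was -0.85 in liver and -0.81 in muscle, and r of Plk2 with Per1 was -0.65 and -0.75. These values are descriptions from the same 22 mice. Reads of Lpar6 may be uncertain, since it lies within Rb1 on the opposite strand and it is not stated whether counting used the strand. In all, 10 of the 24 correlated genes overlap a gene on the opposite strand. Besides Lpar6, the overlapping gene was itself counted for Wdr6, Irf1, Slc15a2, Sp100, Rin2 and Gm15446.

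Of the 23 other correlated genes, 13 had a positive r with Per1 in both tissues, 9 a negative r in both, and 1 (Sox18) differed in sign. Per1 and these genes were selected because liver and muscle varied together, which by itself favours the same sign in both tissues. The share over all genes tested was not computed, so these counts only describe the selected genes. Both sets held weak values, such as Gm15446 (0.17 in liver and 0.14 in muscle) and Cdk5rap1 (-0.34 and -0.09). The first set included Plekhf1 (0.72 in liver and 0.83 in muscle), an endosomal lipid-binding protein, Fam107a (0.60 and 0.83), an actin-binding protein, and Coq10b (0.60 and 0.75), a coenzyme Q binding protein of mitochondria. It also included Nfkbia (0.65 and 0.40), which encodes the inhibitor of NF-kappa-B. The second set included Ccn1 (-0.37 and -0.81), a secreted matrix protein, and Sp100 (-0.49 and -0.75), a component of nuclear bodies. Sp100 has near copies in the mouse genome, so its reads may be split.

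**Figure D2:**
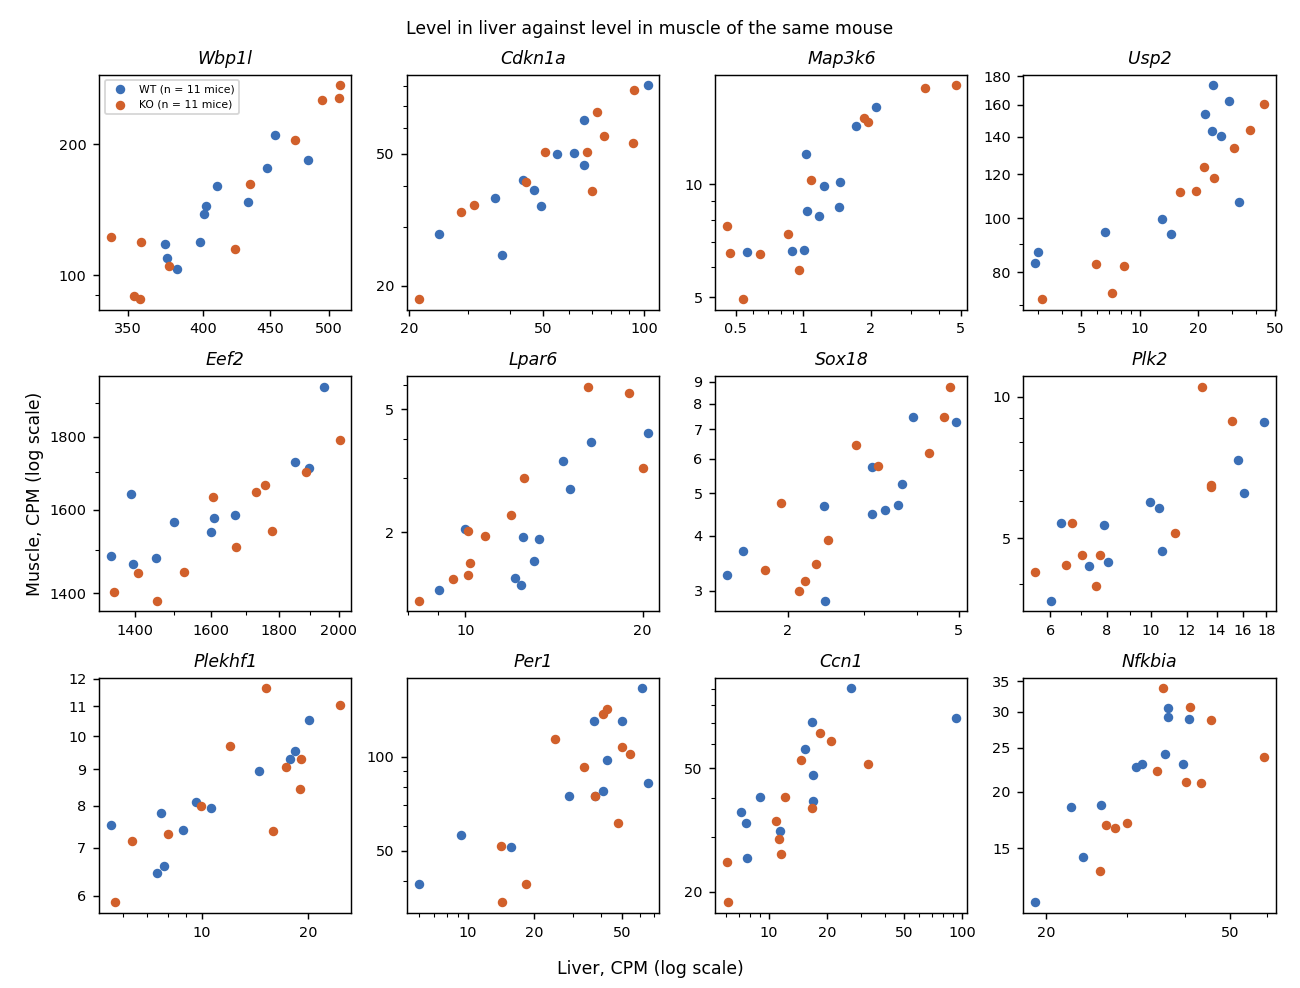
Liver level (x axis, CPM, log scale) against muscle level (y axis, CPM, log scale) for 12 of the 24 correlated genes, 1 point per mouse, WT in blue and KO in orange (11 mice each). Points rise from lower left to upper right in each panel, with r from 0.76 for Per1 to 0.92 for Wbp1l, and both genotypes follow the same band.

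**Figure D3:**
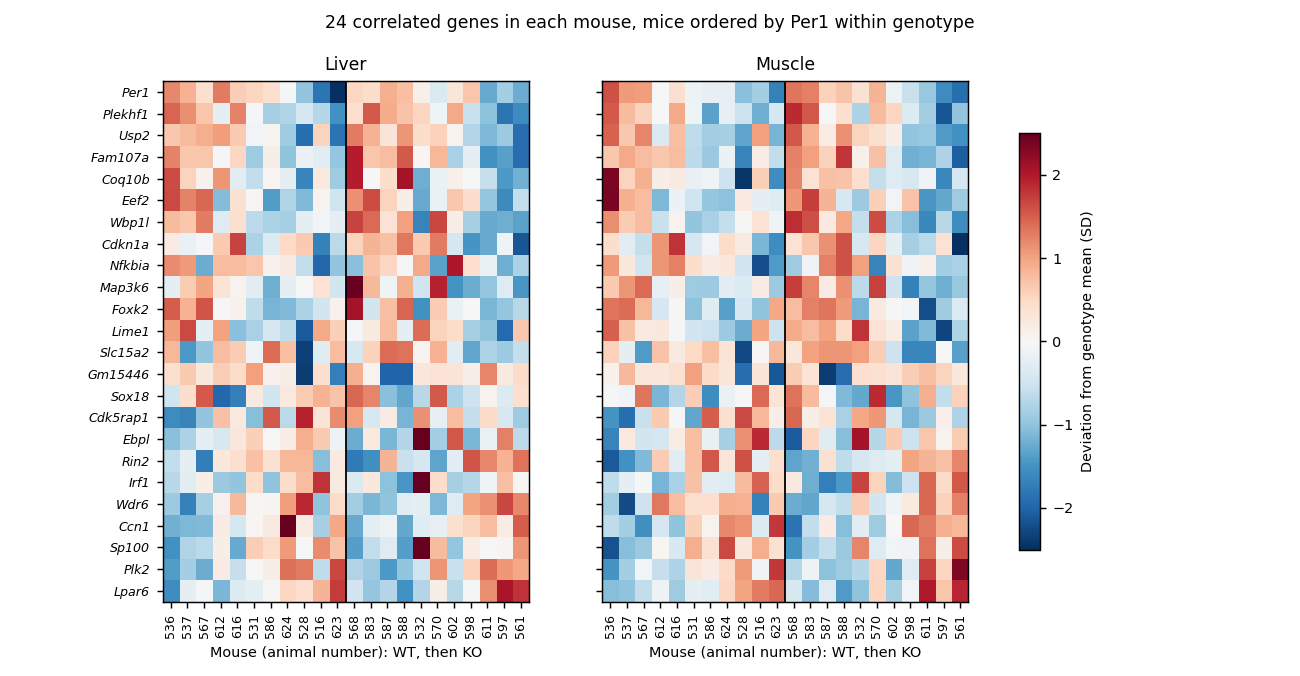
Deviation from the genotype mean, in standard deviations, of the 24 correlated genes (rows, ordered by their r with Per1) in liver and muscle of each mouse (columns, WT then KO, ordered by Per1). The left and right maps resemble each other column by column, with Per1 and Usp2 near the top and Lpar6 and Plk2 at the bottom in opposite colours.

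The remaining genes past the threshold were spread over several functions. Sox18, a transcription factor of endothelial cells, was 1.44 to 4.92 CPM in liver and 2.85 to 8.75 CPM in muscle, with r = 0.83 (permutation p = 1e-05, adjusted p = 0.00864). Lime1, a membrane adaptor of lymphocyte signalling, had an r of 0.78 at the same p. It overlaps Zgpat on the same strand, and its call was lost without KO 597. Irf1 and Nfkbia, a transcription factor and an inhibitor of inflammatory signalling, had r of 0.75 (adjusted p = 0.0236) and 0.79 (adjusted p = 0.0207), and both calls were lost without WT 516 and without KO 532. Ebpl, Foxk2 and Cdk5rap1, an emopamil-binding-like protein, a forkhead factor and a tRNA-modifying enzyme of mitochondria, lost their calls in 9, 10 and 13 of 22 leave-one-out fits. In liver, r of Ebpl with the slope on gene length was -0.77. Ebpl still passed with gene length removed from each library. It did not pass without the 4 mice, by rank, with scaling by library size alone or with RPKM. The part of the slope in the result was not tested.

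Promoter sequences are shown for the 3 correlated genes with an E-box, the letters that the clock's activators bind, and for Ccn1. Both Ccn1 and Coq10b hold a match to a loose D-box pattern. D-boxes are bound by DBP, TEF, HLF and NFIL3, and whether these factors bind the matches was not tested. RefSeq windows of GRCm38.p6 were found for 23 of the 24 genes. The 250 bases before the start were searched on both strands for CACGTG (E-box) and TTANNTAA (D-box pattern, any bases at N). Capitals mark these motifs, and neither overlaps the other. The windows are chr11:69098699-69098948 (plus strand) for Per1, chr1:55052520-55052769 (plus) for Coq10b, chr10:81176381-81176630 (plus) for Eef2 and chr3:145649986-145650235 (minus) for Ccn1, each written 5′ to 3′.
Per1: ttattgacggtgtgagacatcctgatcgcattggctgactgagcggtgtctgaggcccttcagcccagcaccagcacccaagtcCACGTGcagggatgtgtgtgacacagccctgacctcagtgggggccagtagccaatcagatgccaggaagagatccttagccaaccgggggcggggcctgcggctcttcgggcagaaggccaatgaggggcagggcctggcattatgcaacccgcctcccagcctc
Coq10b: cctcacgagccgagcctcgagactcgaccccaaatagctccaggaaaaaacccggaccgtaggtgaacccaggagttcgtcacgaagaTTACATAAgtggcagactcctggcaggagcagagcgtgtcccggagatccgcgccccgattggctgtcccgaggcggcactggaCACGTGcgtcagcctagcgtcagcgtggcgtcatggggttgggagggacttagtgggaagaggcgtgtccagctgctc
Eef2: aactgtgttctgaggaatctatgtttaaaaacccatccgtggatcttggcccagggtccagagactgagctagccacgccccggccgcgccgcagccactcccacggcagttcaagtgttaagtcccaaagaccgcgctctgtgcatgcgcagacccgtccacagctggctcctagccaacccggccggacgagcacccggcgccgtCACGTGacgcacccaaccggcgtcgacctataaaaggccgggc
Ccn1: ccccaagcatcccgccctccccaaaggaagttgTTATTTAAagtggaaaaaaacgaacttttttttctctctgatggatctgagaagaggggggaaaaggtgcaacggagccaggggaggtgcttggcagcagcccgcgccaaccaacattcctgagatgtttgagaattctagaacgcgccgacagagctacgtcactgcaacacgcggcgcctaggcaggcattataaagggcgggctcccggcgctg
The E-box begins 166 bases before the start in Per1, 78 in Coq10b and 43 in Eef2. The D-box pattern match begins 162 bases before it in Coq10b and 217 in Ccn1. An E-box stood in 3 of 23 correlated genes (13 percent), against 10.4 percent of 8192 tested genes with a window and 6.86 percent of all genes in the RefSeq table. A match to the D-box pattern stood in 4 of 23 (17.4 percent), against 3.96 percent of tested genes and 6.30 percent of all. The matches differed at the free bases, with TTAAATAA in Wdr6, TTATTTAA in Ccn1, TTACATAA in Coq10b and TTACTTAA in Cdk5rap1. For the glucocorticoid receptor motif AGAACA the shares were 17.4, 12.5 and 18.2 percent, and for the ROR element AGGTCA 13, 12.5 and 15.8 percent. The core of the interferon-stimulated response element stood in 1 of 23 correlated genes (4.35 percent, against 3.08 percent of tested genes), the heat shock element GAANNTTC in 1 (4.35 against 6.02 percent) and the TATA box TATAAA in 2 (8.70 against 7.45 percent).

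For genes of the clock that are transcribed from E-boxes the median r between liver and muscle was 0.56 over 13 tested genes, against 0.08 over all genes, and 7 of 13 had a positive r at an unadjusted p under 0.05, where the background was 6.57 percent. Per1 was the only one past the adjusted threshold. The albumin D-box binding protein gene Dbp had r = 0.65 (adjusted p = 0.21), Per2 also 0.65 (adjusted p = 0.21), and Ciart, a repressor of CLOCK and BMAL1, 0.70 (adjusted p = 0.0798). Dbp was 5.51 to 67.3 CPM in WT livers and 5.91 to 50.0 CPM in WT muscles, and WT 516 was highest in both. The values of Nr1d1 (r = -0.13), Bhlhe40 (-0.22) and Bhlhe41 (-0.39) lay below 0. None of 6 genes of the positive limb passed, with a median r of 0.18, and the largest values were those of Npas2 (0.55) and Arntl (0.52). In both tissues r of Arntl with Per1 was negative, at -0.42 in liver and -0.36 in muscle. Without the 4 mice with a low liver slope the medians of both clock lists were 0.68 and 0.47. Within genotypes the median over the E-box list was 0.68 in WT and 0.19 in KO mice, and that over the positive limb 0.48 and 0.10, and for the lists the difference between genotypes was not tested.

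Glucocorticoid-induced genes had positive r throughout. All 17 tested genes had r above 0, against 64.5 percent of all genes, and the median was 0.50. At an unadjusted p under 0.05, 10 of 17 were positive, where the background was 6.57 percent. Per1, Cdkn1a and Map3k6 passed the adjusted threshold, as did 0.231 percent of all genes. This list, like the others, was written with earlier results of these data known, so its called members are not independent support. Ddit4, an inhibitor of mTORC1 signalling, had r = 0.71 (adjusted p = 0.0949). Tsc22d3, the glucocorticoid-induced leucine zipper, had r = 0.55 and Klf15, a regulator of amino acid breakdown, 0.56 (adjusted p = 0.42 and 0.41). Within each tissue r with Per1 varied among the members. It was 0.85 in liver and 0.87 in muscle for Tsc22d3, 0.85 and 0.80 for Klf15, and 0.65 and 0.88 for Ddit4. By contrast it was -0.16 and -0.44 for Dusp1, 0.19 and -0.09 for Zbtb16, and 0.26 and 0.14 for Fkbp5. For the metallothionein genes Mt1 and Mt2 it was -0.0037 and -0.04 in liver and 0.70 and 0.66 in muscle. Fkbp5, a co-chaperone of the receptor, had r = 0.41 between tissues (adjusted p = 0.72). Per1 also belongs to the clock list, and Tsc22d3 to the list of other rhythmic genes. In that list 2 of 15 tested genes passed (Usp2 and Coq10b), against 0.231 percent of all genes, and the median r was 0.38.

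Immediate early genes, which cells switch on within minutes of a stimulus, had a median r of 0.30 over 22 genes with none past the adjusted threshold. At an unadjusted p under 0.05, 6 were positive, where the background was 6.57 percent. Fos had r = 0.60 and Dusp1, a phosphatase of MAP kinases, 0.61 (adjusted p = 0.34 and 0.37). Heat shock genes had a median r of 0.31 over 22 genes, none past the adjusted threshold. Of these, 7 were positive at an unadjusted p under 0.05, against the same background, with Dnajb1 highest at 0.67 (adjusted p = 0.19).

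Interferon-induced genes had a median r of 0.46 over 36 tested genes, of which Irf1 passed. At an unadjusted p under 0.05, 19 were positive, where the background was 6.57 percent. These values rested in large part on 1 mouse. KO mouse 532 had the highest level of 27 of the 36 genes in liver and of 28 in muscle. The share of all tested genes for which this mouse was highest was not computed. Igtp, an interferon-induced GTPase, was 759 CPM in its liver against 32.5 to 55.9 CPM in the other 21, and 38.2 CPM in its muscle against 8.20 to 14 CPM. Gbp4, another GTPase, was 17.5 against 1.70 to 4.74 CPM in liver and 49.8 against 3.94 to 13.7 CPM in muscle. Mouse 532 lay outside the range of the others for both genes in both tissues. Without it r fell from 0.90 to 0.09 for Igtp and from 0.88 to 0.61 for Gbp4, and the list's median was 0.22. Then 4 of the 36 genes were positive at an unadjusted p under 0.05, against 700 of all 10370. In WT mice alone the list's median was 0.28, against 0.10 over all genes.

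Antigen presentation genes gave the same picture, with a median r of 0.45 over 21 genes and 0.14 without mouse 532, and none passed the adjusted threshold. In liver mouse 532 was highest for all 21 of them and in muscle for 11, again without a share over all tested genes beside it. Tap1, a subunit of the peptide transporter, had r = 0.87 (adjusted p = 0.0798) and 0.61 without mouse 532. In liver, mouse 532 also had the highest summed CPM of macrophage markers, 719 against 201 to 372 in the others, of T cell markers, 7.68 against 0.765 to 2.08, of neutrophil markers, 13.4 against 0.603 to 4.67, and of B cell markers, 34.6 against 5.92 to 28.3. Endothelial markers were lower in its liver than in any other, 79.8 against 88.7 to 149 CPM. In the same liver hepatocyte, muscle fibre and fibroblast markers ranked 2, erythroid markers 3 and adipocyte markers 15. The muscle of mouse 532 was highest for T cell markers, 0.365 against 0 to 0.277 CPM. For macrophage markers it lay within the range of the others, 28.7 against 12.5 to 60.2 CPM. The liver of mouse 532 is 1 of the 4 with a low slope on gene length. The part of these measures in the result was not tested, and fewer or more cells of a type and less or more RNA per cell cannot be told apart in tissue samples.

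**Figure D4:**
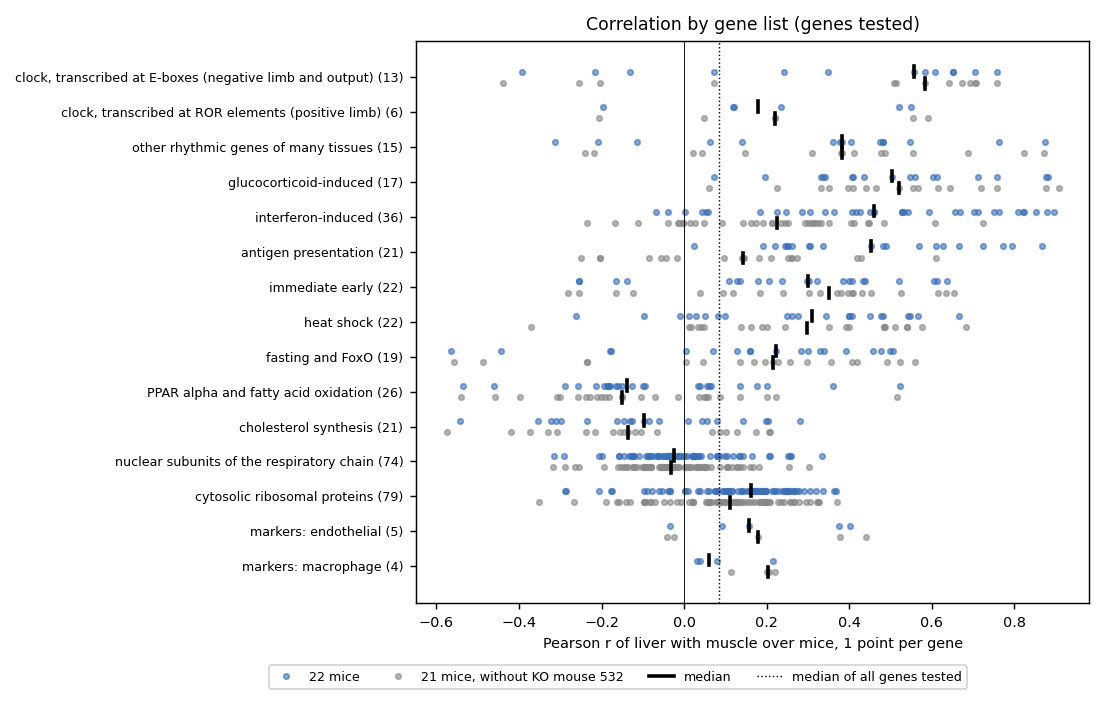
Pearson's r of liver with muscle for each gene (points) of 15 lists, in all 22 mice (blue) and without KO mouse 532 (grey), with list medians as black bars and the median of all genes as a dotted line. The interferon list moved from a median of 0.46 to 0.22 and the antigen presentation list from 0.45 to 0.14 without this mouse, while the clock list transcribed at E-boxes stayed at 0.56 and 0.58.

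Gm15446, a zinc finger gene of a large family whose reads may be uncertain, separated the mice in the same way in both tissues. In 4 mice (WT 528 and 623, KO 587 and 588) it had at most 2 reads in liver and at most 2 in muscle. In the other 18 mice it had 22 to 89 reads in liver (0.826 to 2.85 CPM) and 66 to 306 reads in muscle (2.97 to 12.1 CPM). The groups were cut at 3 muscle reads, so that only the liver reads were free to overlap, and they did not. The gene was also selected for its correlation between tissues, which favours such a separation. Both genotypes were in each group. How many of all tested genes separate mice in this way was not computed. Since the mice fall into separate clusters, r over the 22 mice (0.96) describes that separation. Within the 18 mice r was 0.60 (permutation p = 0.0058) and rho 0.28 (permutation p = 0.266), and r was 0.25 without the 2 mice farthest from the median, so that the relation rested on those mice. Slc15a2, a transporter of small peptides, also went from few reads to many, but without a gap of that kind. It ranged from 0.0760 to 5.29 CPM in liver and from 0.208 to 22.2 CPM in muscle, with r = 0.84 (permutation p = 1e-05, adjusted p = 0.00864) and rho = 0.85 (permutation p = 1e-05). WT 528 was lowest of the WT mice in both tissues. Of the 4 mice near 0 for Gm15446, WT 528 was also low for Slc15a2, whereas WT 623 held the highest WT muscle level of the latter and KO 587 the highest KO levels in both tissues.

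**Figure D5:**
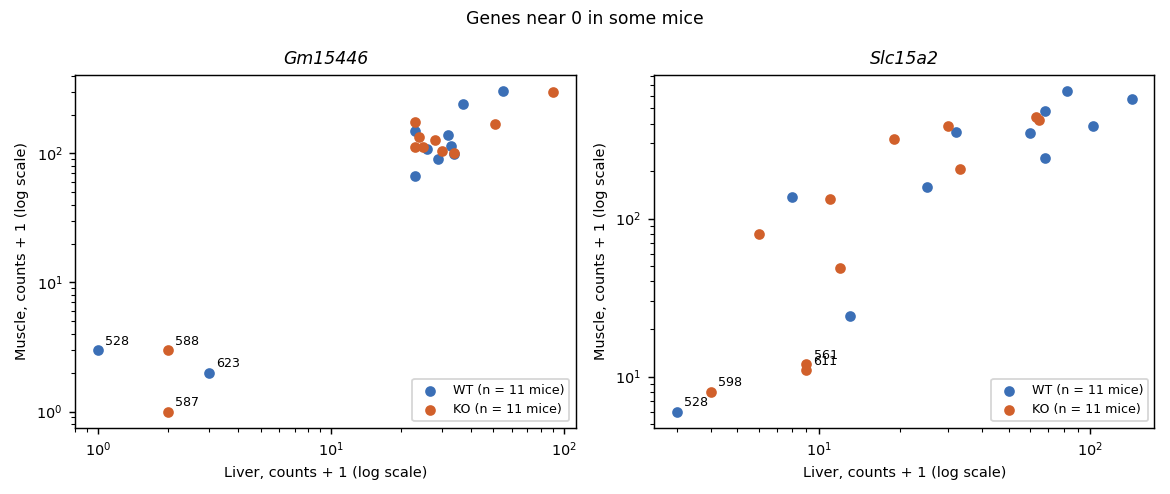
Reads in liver (x axis, counts + 1, log scale) against reads in muscle (y axis, counts + 1, log scale) for Gm15446 and Slc15a2, 1 point per mouse, WT in blue and KO in orange, with mice at 12 muscle reads or fewer numbered. Gm15446 shows 4 mice near the origin apart from 18 others, while Slc15a2 shows a continuous band.

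Each liver was also compared with each muscle across genes. Over all 10370 genes, r across genes between the liver and the muscle of one mouse was -0.04 to 0.29 (median 0.11), and genes are not independent replicates. Among the 11 muscles of its genotype, the own muscle ranked first for 6 of 22 livers and within the first 3 for 19. Its worst place was 8, for WT 586. Among all 22 muscles, with deviations from the tissue mean, it ranked first for 4 livers. There its worst place was 15, for WT 516 and KO 602. Over the genes called without the mouse being ranked (20 to 30 genes), r with the own muscle was 0.16 to 0.88 (median 0.76), and the own muscle ranked first of 22 for 12 mice, within the first 3 for 20, and in place 6 at worst. The lowest of these r was that of KO 532.

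The correlation was compared between genotypes by the difference of Fisher's z, with genotype reassigned 100000 times. No gene passed after adjustment over 10370 genes (smallest adjusted p = 0.259), and 580 had an unadjusted p under 0.05. For the 24 correlated genes the smallest adjusted p was 0.731. The genotype effect averaged over both tissues was tested with edgeR in 14739 genes, of which 1 was higher (0.00678 percent) and 1 lower (0.00678 percent) in KO mice at an adjusted p under 0.05. Slc16a11, a monocarboxylate transporter gene beside Slc16a13, was higher in KO by 1.26 on the log2 scale (SE 0.16, edgeR adjusted p = 2.6e-06). In liver it was 8.31 to 12.6 CPM in WT and 9.41 to 25.5 CPM in KO mice. In muscle it was 0 to 0.457 CPM in WT and 0.263 to 1.37 CPM in KO mice. These muscle levels rested on few reads, 0 to 13 in WT and 7 to 53 in KO. The groups overlapped in both tissues, and the fitted differences were 0.50 in liver and 2.03 in muscle (interaction adjusted p = 0.081 by edgeR). The lower gene was Slc16a13, at -2.41 (SE 0.19, edgeR adjusted p = 4.65e-12). The next by p, with edgeR adjusted p of 0.092 each, were Pigr, Ropn1l and ENSMUSG00000073719. Pigr, which carries antibodies across epithelia, had at most 5 reads in any muscle, the muscle level of Ropn1l was highest in KO 602 (272 reads), and ENSMUSG00000073719 went from 4.48 to 0.14 on the log2 scale without the 4 mice with a low liver slope.

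Total counts varied together as well. The log2 total count of liver correlated with that of muscle over the 22 mice, with r = 0.71 (permutation p = 0.00028, adjusted over 2 relations p = 0.00056) and rho = 0.68 (permutation p = 0.00092, adjusted p = 0.00184), and r was 0.51 without the 2 mice farthest from the median. For the slope on gene length r was 0.20 (permutation p = 0.344, also after adjustment) and rho 0.30 (permutation p = 0.168, also after adjustment), and r was 0.24 without the 2 farthest mice. For the 24 genes, r with the library's own total was -0.38 to 0.52 in liver and -0.27 to 0.27 in muscle, highest in liver for Ccn1.

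Muscle levels of many correlated genes moved with markers of other cell types in muscle. The size of r with the summed level of 5 endothelial markers was over 0.5 for 15 of the 24 genes in muscle, from -0.84 for Wbp1l to 0.76 for Sp100, and for 3 genes in liver. For macrophage markers the count was 12 in muscle and 2 in liver, and for fibroblast markers 9 and 4. The shares over all genes tested were not computed, so these counts are not shown to be particular to the 24 genes. The summed endothelial level was 145 to 290 CPM in muscle and 79.8 to 149 CPM in liver, and its r between liver and muscle was 0.20. None of the 5 endothelial markers themselves passed the test (median r 0.16). The part of these markers in the correlation of liver with muscle was not tested.

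The largest component of variation differed between tissues. It held 48.3 percent of the variance of deviations in liver and 35.3 percent in muscle, and the size of r between both was 0.08 (permutation p = 0.812, adjusted over 6 relations p = 0.812). In liver it ran with the slope on gene length (size of r 0.996, size of rho 0.985, permutation p = 1e-05 for each, adjusted p = 6e-05, and r of 0.99 without the 2 farthest mice). In muscle it ran with Per1 (size of r 0.64, permutation p = 0.00197, adjusted p = 0.00591; size of rho 0.67, permutation p = 0.00092, adjusted p = 0.00276), with a size of r of 0.52 without the 2 farthest mice. Per1 in liver had a size of r of 0.08 with the liver component (permutation p = 0.662, adjusted p = 0.794). Per1 in muscle had 0.13 with it (permutation p = 0.613, adjusted p = 0.794). With the muscle component Per1 in liver had 0.40 (permutation p = 0.0516, adjusted p = 0.103). After the first component was taken out of each tissue, no gene passed the adjusted threshold. Median r was then 0.57 over the E-box clock list, 0.43 over glucocorticoid-induced genes, 0.21 over other rhythmic genes and 0.05 over all genes.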

How the data were processed

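Gene counts of 44 libraries and matching RPKM values were used as the authors deposited them. Per the methods, libraries were poly(A)-selected, stranded and sequenced single-end, 11 libraries to a pool, and limma was named for later steps. The aligner, counter, genome build and annotation are not given in the sources used here, nor is whether counting used the strand. The deposited counts are whole reads per gene, and the deposited RPKM values scale them to gene length and depth by a procedure not given in the sources used here. Of 38202 gene IDs, 36340 (95.1 percent) were matched to a symbol.

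Counts were scaled within each tissue by TMM and turned into log2 CPM with a prior count of 2 (edgeR 4.0.16, R 4.3.3). Genes with a mean CPM of at least 1 in both tissues entered the correlation, centred on tissue and genotype, with two-sided p-values from 100000 pairings shuffled within genotype (Python 3.11.15, numpy 2.4.6, scipy 1.17.1) and Benjamini-Hochberg adjustment over all 10370 genes. The smallest p this allows is 1e-05. Liver and muscle with one animal number were taken as one mouse, the numbers being shared between titles of both tissues. Whether mice shared a cage or litter is not given in the sources used here. The genotype effect averaged over tissues was tested with the quasi-likelihood test of edgeR on all libraries. Named genes were the 10 with the smallest p, up to 3 called genes of each list, the 5 with the smallest p for genotype, and Slc16a13, besides further members of lists that were chosen after their values were seen. The members and 36 gene lists were chosen with earlier results of these data known. Alternatives included Spearman's rho, other scaling, filters and prior counts, log2(RPKM + 0.1) and log2(RPKM + 1), removal of gene length by loess (span 0.3), removal of the first principal component, each genotype alone, each mouse left out, DESeq2 1.42.0 and limma 3.58.1. The tests were checked on simulated data. Depth was 20150712 to 35218243 counts per library, and genes near 1 CPM are the least precise.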

Additional observations from a re-analysis of the deposited data

Results flagged for a closer look

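Slc16a13 was marked because its difference between genotypes was not the same in both tissues. Relative to WT it was -5.45 on the log2 scale in KO liver and 0.63 in the muscle libraries labelled KO, and the interaction had an edgeR adjusted p of 5.92e-16. KO livers held 0 to 8 reads (median 3) and WT livers 99 to 302, while muscles held 4 to 22 reads in WT and 11 to 40 in those labelled KO. Groups of 11 mice were too large for the test of single outlying samples.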

How the results depend on the processing

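Of the correlated genes (liver with muscle over mice), 24 in all, 0 were left with the first principal component of each tissue removed, 0 in WT mice alone and 0 in KO mice alone, where 554, 631 and 446 genes had a positive r at an unadjusted p under 0.05. There were 46, all positive and including the 24, by the t distribution of the partial correlation. Counts were between 17 and 32 under 10 other alternatives, 16 to 24 of the original genes among them, and 24 with 1000000 shuffles, an alternative chosen after seeing the data. Leaving out 1 mouse gave 20 (without WT 516) to 30 (without KO 570) genes and a mean correlation of 0.07 to 0.10. The mean correlation over all genes was 0.0882 in KO mice alone (p = 0.0527) and 0.0585 with no genotype term (p = 0.0857), and kept its direction and its side of the threshold otherwise. All 24 genes had r above 0 under every alternative run. Genes for the genotype effect were 2 in the other alternatives, with the mouse as replicate block included (limma, 2 genes, correlation within mice 0.06), and 47 by DESeq2 (33 higher and 14 lower). The causes were not tested. Depth limits the precision of genes near 1 CPM.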

Other observations

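Gene groups of energy metabolism showed little shared variation between liver and muscle. Among 74 nuclear genes of the respiratory chain, none had an unadjusted p under 0.05 in either direction. Their median r was -0.02, with a range of -0.32 to 0.33. Without the 4 mice with a low liver slope, 4 of the 74 were positive at an unadjusted p under 0.05, against 919 of all 10370 genes. Among 26 genes of PPAR alpha and fatty acid oxidation the median r was -0.14, and Acadm, a dehydrogenase of medium-chain fatty acids, had r = -0.53 (adjusted p = 0.43), while the fatty acid transporter gene Cd36 had r = 0.52 (adjusted p = 0.49). Without the 4 mice with a low liver slope on gene length this median was 0.0022 and r of Acadm was -0.34. The 21 tested genes of cholesterol synthesis had a median of -0.10. For 18 genes of lipogenesis the median was 0.05 and for 20 genes of lactate, pyruvate and monocarboxylate transport 0.06. None of the genes in these lists passed the adjusted threshold.

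The 79 cytosolic ribosomal protein genes had r above 0 in 66 cases, against 64.5 percent of all genes, with a median of 0.16. None was at an unadjusted p under 0.05. Without the 4 mice with a low liver slope the median was 0.38. Of the 79 genes, 26 were then positive at an unadjusted p under 0.05, against 919 of all 10370. For fasting and FoxO genes the median was 0.22 over 19 genes, with Lpin1, a phosphatase of lipid synthesis, at 0.50 and Angptl4, an inhibitor of lipoprotein lipase, at -0.56 (adjusted p = 0.49 and 0.42), and without the same 4 mice the median was 0.09. Socs3 had r = 0.62 (adjusted p = 0.33) in a list of 10 acute phase genes whose median was 0.03. Erythroid markers had r above 0 for 5 of 5 genes, against 64.5 percent of all genes, with a median of 0.33. Their summed level had an r of 0.29 between tissues. Ctc1, of the telomere-capping CST complex, had the lowest r of all genes tested, -0.67 (adjusted p = 0.0919). Cish, an inhibitor of cytokine signalling, had r = 0.77 (adjusted p = 0.0911) and 0.54 without the 2 mice farthest from the median.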
